A study of Mus musculus with 18 samples.

Results

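The genes described here build the gate at the base of the primary cilium and supply its membrane. They are 33 mouse genes, chosen by name from the 49845 gene entries of each library. All 33 had at least 1 TPM (transcript abundance normalised to length and library total) in at least 3 of the 18 libraries, so none was lost to the filter on low values. By role they are 14 genes of the MKS module of the transition zone, 4 of its scaffold and NPHP module, 3 of the inversin compartment, 6 of cilium membrane traffic and lipids, and 6 of the distal appendages and basal body.

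The cells were IMCD3, a mouse kidney epithelial line derived from inner-medullary collecting duct with the background Tg(SV40E)bri/7, at passage 10 to 15. The groups were Dync2h1 knockout cells under fluid flow, Dync2h1 knockout cells kept static, Ift140 knockout cells under flow, Ift140 knockout cells kept static, wild-type (WT) cells under flow and WT cells kept static, with 3 libraries of total RNA in each. Flow was a shear stress of about 0.7 dyne/cm2 for 3 h in microslide chambers, and static cultures stayed in such chambers for the same time. Dync2h1 encodes the heavy chain of the motor that carries cargo back from the cilium tip, and Ift140 a subunit of the transport complex that works with it. The labels speak of ciliated and non-ciliated cells without giving ciliation per line, and they do not give the number of clones behind each knockout or say whether replicates were separate cultures. P-values are thus set by the spread between these libraries alone, which may be technical, and a knockout cannot be told apart from a clone.

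The transition zone is the stretch just above the basal body where linkers join the microtubules to the membrane. Its MKS module holds membrane and coiled-coil proteins and its NPHP module sits closer to the microtubules, and both set which membrane proteins enter and stay in the cilium. Above it lies the inversin compartment, while distal appendages dock the basal body to the membrane. Lipid-modified proteins reach the cilium through the carriers Pde6d and Unc119b, which work with Arl3 and Arl13b. Human mutations in many of these genes cause Joubert, Meckel and nephronophthisis syndromes, in which kidney tubules often form cysts.

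Promoters of the genes were read for the X-box, the element bound by RFX transcription factors, which act on many cilium genes. RefSeq promoter windows on GRCm38.p6, from 250 bases before to 50 after a gene's start, were found for 31 of the 33. The full X-box was searched on both strands as the arm GTTNCC, a spacer of 2 bases and the mirrored arm GGNAAC. It was in 3 of these 31 (9.7%), against 0.649% of the 9862 tested genes that had a window. Counted by promoter rather than by gene, 0.451% of the 32851 in the RefSeq table had it. The same arms with a 1-base spacer were in 1 of 31 (3.2%), against 0.193% of these tested genes and 0.271% of all promoters. The single arm GTTGCC, which overlaps many full matches, was in 14 of 31 (45.2%), against 12.5% of all promoters and 15.0% of the 9862 tested genes that had a window. These 4 matches are printed 5′ to 3′ on the strand of the gene with the matching letters in capitals, and the promoter of Cc2d2a, the gene with the most calls, is printed although it holds no such match in the window. The Ahi1 stretch is chr10:20952560-20952589 on the plus strand, with the match at 22 from the start. The Tctn1 stretch is chr5:122264411-122264440 on the minus strand, with the match at 37 from the start. For Mks1 it is chr11:87853183-87853212 on the plus strand, with the match at -24 from the start, and for Tctn3 chr19:40612350-40612379 on the minus strand, with the match at -140. The Cc2d2a stretch, chr5:43662246-43662345 on the plus strand, is the 100 bases before the GENCODE start of the gene, which lies upstream of the RefSeq start.
Ahi1: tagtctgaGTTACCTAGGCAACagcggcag
Tctn1: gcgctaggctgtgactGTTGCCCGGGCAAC
Mks1: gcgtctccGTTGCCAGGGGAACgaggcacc
Tctn3: tcccagcgGTTGCCAGGTAACgggaaccac
Cc2d2a: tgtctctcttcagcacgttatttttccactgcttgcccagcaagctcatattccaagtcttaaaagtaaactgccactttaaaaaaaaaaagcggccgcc

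Levels below are scaled TPM, which are per transcript length, after the libraries were brought to a common scale. A log2 difference is that of scaled TPM + 1 with its standard error (SE) from limma, which understates the change of genes near 0 TPM. A gene is said to rise or fall where its Benjamini-Hochberg adjusted p over the 16718 genes tested was under 0.05. With 3 libraries a group, an exact rank test cannot go below p = 0.1, so smaller p-values rest on the model. TPM keeps no sequencing depth, so the counting error behind a value is unknown.

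Of the marker genes of other cell types, none of the 5 endothelial, 2 of the 6 leukocyte and 1 of the 6 fibroblast genes passed the level filter. Of the 16 kidney epithelium markers 10 passed, but Aqp2, Aqp3, Aqp4, Avpr2, Scnn1a and Gata3, which mark collecting duct cells or their water and salt transport, did not. The summed level of the 16 was 4600 to 4810 scaled TPM under flow and 3550 to 3650 in static Dync2h1 knockout cells, 4060 to 4820 and 3590 to 3900 in Ift140 knockout cells, and 3880 to 4040 and 2800 to 2940 in WT cells. These sums do not speak for each gene. With flow averaged over the 3 genotypes, 4 of the 10 rose and 4 fell, where 19.3% and 18.9% of all genes did. Summed over each list, endothelial genes reached at most 0.999 and fibroblast genes 4.48 scaled TPM in a library, and leukocyte genes 15. In the check of the labels, Dync2h1 stood at 7.07, 10.0 and 10.4 scaled TPM in Dync2h1 knockout flow libraries and 15.1, 9.55 and 15.4 in the static ones, against 28.1 to 45.4 in WT libraries. Ift140 stood at 7.65, 8.53 and 15.4 scaled TPM in Ift140 knockout flow libraries and at 6.26, 6.44 and 7.45 in the static ones, against 15.1 to 19.5 in WT libraries. The library labelled flow replicate 3 of the Ift140 knockout thus held Ift140 at a WT level, and counts and calls that change without it are given both ways.

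Seen over all 33 genes, the WT static libraries stood above the other 15. The summed level was 466, 453 and 466 scaled TPM in Dync2h1 knockout flow libraries, against 520, 505 and 514 in Dync2h1 knockout static libraries. In Ift140 knockout libraries it was 537, 518 and 509 under flow, against 578, 588 and 581 in static culture. In WT libraries it was 590, 578 and 592 under flow, against 724, 737 and 705 in static culture. The flow libraries of each genotype lay below its static libraries, and the sums of the genotypes did not overlap in static culture. Bulk RNA values cannot tell fewer cells of a kind from less RNA per cell.

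**Figure D1:**
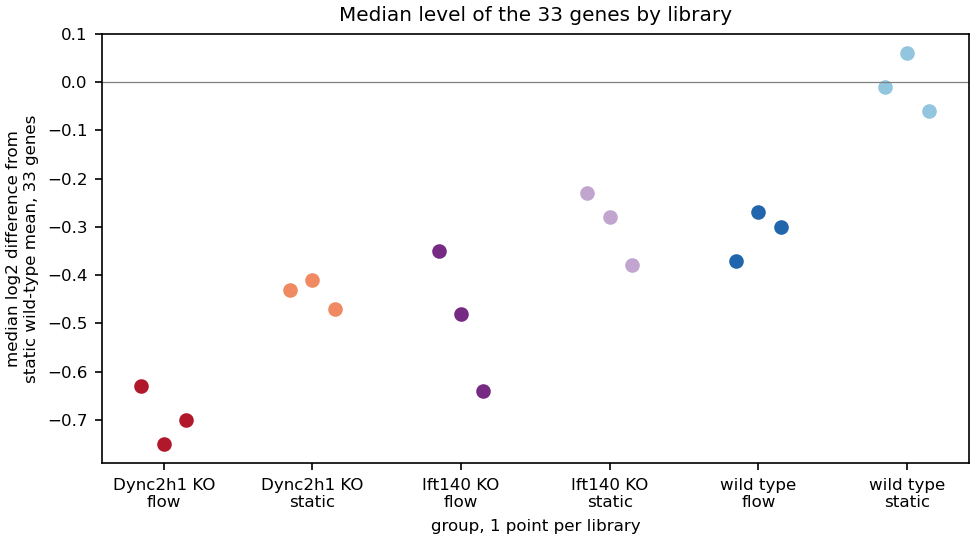
Median over the 33 genes of the log2 difference of scaled TPM + 1 from the static WT mean (y axis), 1 point per library, by group (x axis). The medians ran from -0.75 to -0.63 in Dync2h1 knockout flow libraries and from -0.47 to -0.41 in their static libraries, and from -0.06 to 0.06 in static WT libraries.

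**Figure D2:**
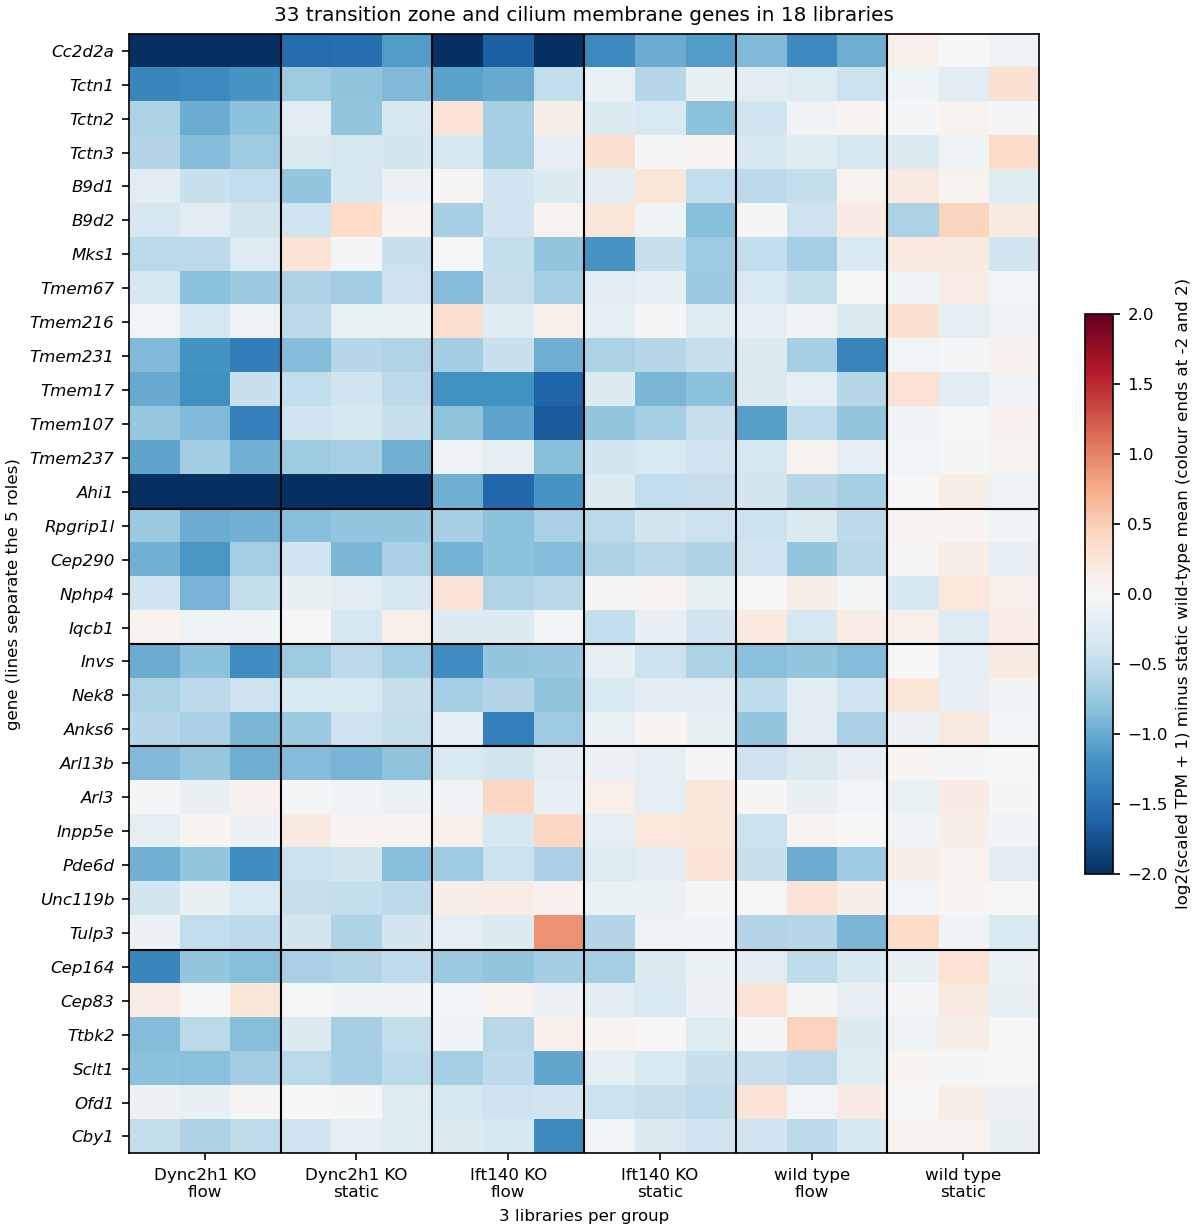
Log2 difference of scaled TPM + 1 from the static WT mean for the 33 genes (y axis, ordered by role) in the 18 libraries (x axis, 3 per group), with blue for lower and red for higher values and colours ending at -2 and 2. Cc2d2a was low in all 15 libraries other than static WT, and Ahi1 was lowest in the 6 Dync2h1 knockout libraries.

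With flow, 11 of the 33 fell and 0 rose in WT cells, where 10.3% of all genes tested fell and 10.2% rose, 20.5% in either direction. The count was 7 without WT static replicate 1 or without WT flow replicate 1 or 2. In Ift140 knockout cells 8 fell and 0 rose, against 8.27% and 9.21% of all genes. There 6 fell without the library labelled flow replicate 3 of that line, 4 without its static replicate 1, 5 without its static replicate 3, 5 (with 1 that rose) without its flow replicate 2, and 0 when only the compared groups were in the fit. In Dync2h1 knockout cells 2 fell and 0 rose, against 8.15% and 10.8% of all genes, so their share was below that of all genes. That count ran from 1 to 4 over the alternative settings, and was 1 without any single library of that line but flow replicate 1. The median log2 difference of the 33 was -0.20 in Dync2h1 knockout, -0.26 in Ift140 knockout and -0.31 in WT cells, where that of all genes lay between -0.01 and 0.01. All 3 flow libraries lay below all 3 static ones for 10 of the 33 genes in Dync2h1 knockout, 14 in Ift140 knockout and 15 in WT cells, where this held for 18.3%, 13.4% and 20.5% of all genes. Without the library labelled flow replicate 3 of the Ift140 knockout, the count in that line was 15, and the share of all genes was not counted. Averaged over the 3 genotypes, 17 fell and 1, Unc119b, rose, where 18.9% of all genes fell and 19.3% rose.

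Over the 3 genotypes, 20 of the 33 had a log2 difference with flow below 0 in each. Cep83, Ofd1 and Unc119b had one above 0 in each. Of all genes, 47.8%, 49% and 51.7% lay below 0 in Dync2h1 knockout, Ift140 knockout and WT cells taken singly. Neither the share of all genes with one sign in all 3 lines nor that called in 2 lines was counted. Agreement between lines is thus not shown to be particular to these 33 genes. Of the 11 genes that fell in WT cells, 5 also fell in Ift140 knockout cells (Cc2d2a, Ahi1, Invs, Nek8 and Sclt1), which is 62.5% of the 8 there and 45.5% of the 11. Without the library labelled flow replicate 3 of the Ift140 knockout they were 4, all but Sclt1, which is 66.7% of 6 and 36.4% of 11. Cc2d2a and Tmem107, the 2 that fell in Dync2h1 knockout cells, fell in WT cells too. The 3 flow comparisons share no library.

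Markers of dividing cells moved with flow. The 10 genes of that list, such as Mki67 and Top2a, all passed the level filter. Of these, 7 fell in Dync2h1 knockout, 6 in Ift140 knockout and 7 in WT cells, where 8.15%, 8.27% and 10.3% of all genes fell. The summed level of the 10 was 1800 to 1860 scaled TPM under flow against 2310 to 2430 in static Dync2h1 knockout cells. It was 1510 to 1820 against 2210 to 2320 in Ift140 knockout cells and 1700 to 1820 against 2530 to 2730 in WT cells. Foxj1, a transcription factor of motile cilia, also fell, with 13.6, 13.6 and 13.3 scaled TPM under flow against 25.7, 31 and 28.8 in static Dync2h1 knockout cells and 10.3, 14.7 and 13.6 against 26.0, 29.7 and 29.2 in WT cells (adjusted p = 3.54e-05 and 1.73e-05). Ccdc39, another motile cilium gene, was called in no flow comparison, at 0.52 (adjusted p = 0.0994) in Dync2h1 knockout, 0.03 (adjusted p = 0.958) in Ift140 knockout and -0.44 (adjusted p = 0.159) in WT cells. The motile cilium genes Dnah5, Dnah9, Tekt1, Rsph4a and Mcidas were under the level filter. The part of these genes in the results was not tested.

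**Figure D3:**
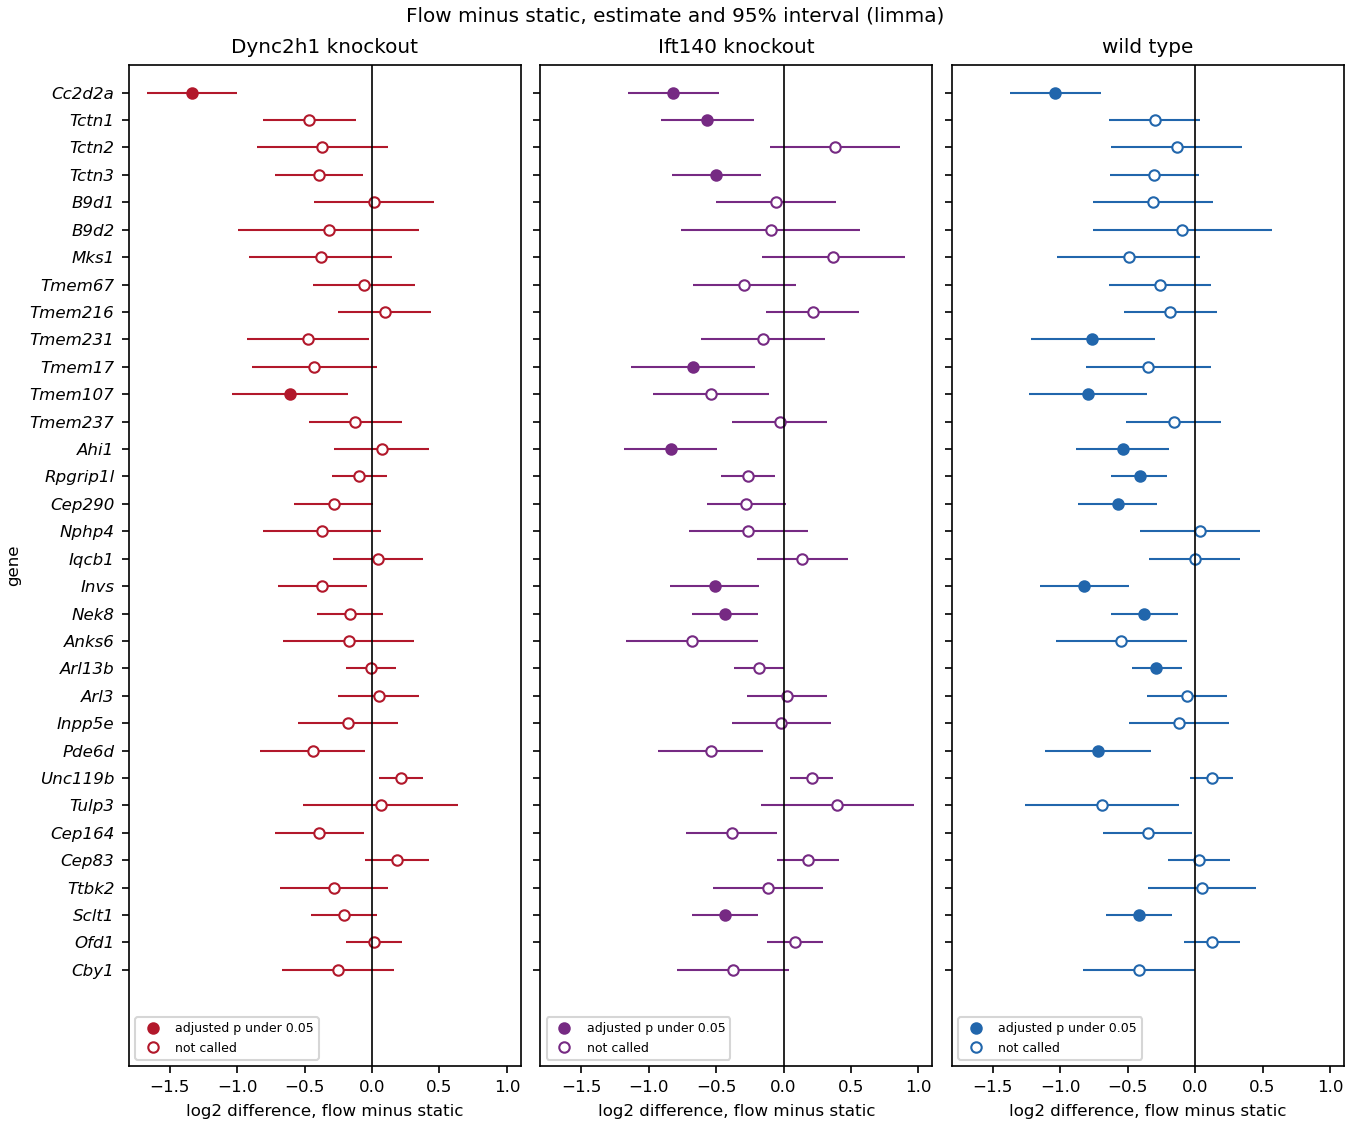
Log2 difference of scaled TPM + 1, flow minus static (x axis), for each of the 33 genes (y axis) in Dync2h1 knockout, Ift140 knockout and WT cells, as limma estimates with 95% intervals and filled points for adjusted p under 0.05. Cc2d2a was called in all 3 panels, at -1.34, -0.82 and -1.04.

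Cc2d2a, a coiled-coil and C2 domain protein of the MKS module and a Joubert and Meckel syndrome gene in humans, was called in 8 of the 10 comparisons, more than any other of the 33. Its levels were 5.50, 3.93 and 5.12 scaled TPM in Dync2h1 knockout flow libraries, against 12.2, 12.5 and 16.7 in static ones. In Ift140 knockout libraries they were 7.49, 11.3 and 8.44 under flow, against 14.8, 18.2 and 16.7 in static culture. In WT libraries they were 19.7, 15.0 and 18.4 under flow, against 39.8, 37.2 and 34.8 in static culture. No flow library overlapped a static one of its genotype. The log2 difference with flow was -1.34 (SE 0.16, limma adjusted p = 2.54e-05) in Dync2h1 knockout, -0.82 (SE 0.16, adjusted p = 0.00213) in Ift140 knockout and -1.04 (SE 0.16, adjusted p = 0.000248) in WT cells. Against WT it fell by 1.38 (adjusted p = 1.06e-05) in static and by 1.68 (adjusted p = 1.34e-06) in flow Dync2h1 knockout cells, and by 1.12 (adjusted p = 0.000167) and 0.90 (adjusted p = 0.00113) on the log2 scale in static and flow Ift140 knockout cells. The gene lies on chromosome 5, 43662346 to 43740972 (GRCm38, plus strand), with 41 merged exons.

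Ahi1, the jouberin gene of the MKS module, separated the Dync2h1 knockout from the other lines. It stood at 1.07, 0.682 and 1.36 scaled TPM in Dync2h1 knockout flow libraries and at 1.05, 0.758 and 0.958 in static ones. Ift140 knockout libraries had 4.46, 2.63 and 3.77 under flow, against 7.95, 6.67 and 6.81 in static culture. WT libraries had 7.37, 6.25 and 5.80 under flow, against 9.70, 10.7 and 9.01 in static culture. All 6 Dync2h1 knockout libraries lay below all 12 others, and flow libraries lay below static ones in the other 2 lines but overlapped them in the Dync2h1 knockout. Dync2h1 knockout minus WT was -2.49 (SE 0.16, limma adjusted p = 2.76e-08) in static culture and -1.89 (SE 0.16, adjusted p = 5.6e-07) under flow. These 2 values depend on the pseudocount, at -3.29 and -2.57 with 0.1 and -1.32 and -0.93 with 5, and stayed called with each. With flow it fell by 0.83 (adjusted p = 0.00231) in Ift140 knockout and by 0.54 (adjusted p = 0.0297) in WT cells, the second lost in 7 of 14 alternative settings. Ift140 knockout minus WT was -0.71 (adjusted p = 0.00798) under flow and -0.41, not called, in static culture.

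Genes around Ahi1 on chromosome 10 (GRCm38) were looked up after its values were seen. Ahi1 spans 20952547 to 21080429 on the plus strand. Myb, a transcription factor gene at 21124935 to 21160984 on the minus strand, had 0.607, 0.746 and 0.491 scaled TPM in Dync2h1 knockout flow libraries, against 2.51, 3.84 and 2.49 in WT flow libraries. In static culture it had 0.244, 0.0404 and 0.577 scaled TPM in the Dync2h1 knockout, against 3.42, 1.65 and 2.30 in WT. Myb fell in the Dync2h1 knockout (-1.42 in static culture, adjusted p = 0.000426) and also in the Ift140 knockout (-1.34, adjusted p = 0.00132). Hbs1l, the next gene at 21295979 to 21368898, was not called, at 0.04 in static and 0.21 under flow for Dync2h1 knockout minus WT. Mtfr2, before Ahi1 at 20347770 to 20361304, lies farther from it than Myb and Hbs1l, and the stretch between was not read. It stood at -0.04 for Dync2h1 knockout minus WT in static culture and at -0.79 (adjusted p = 0.0425) under flow.

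**Figure D4:**
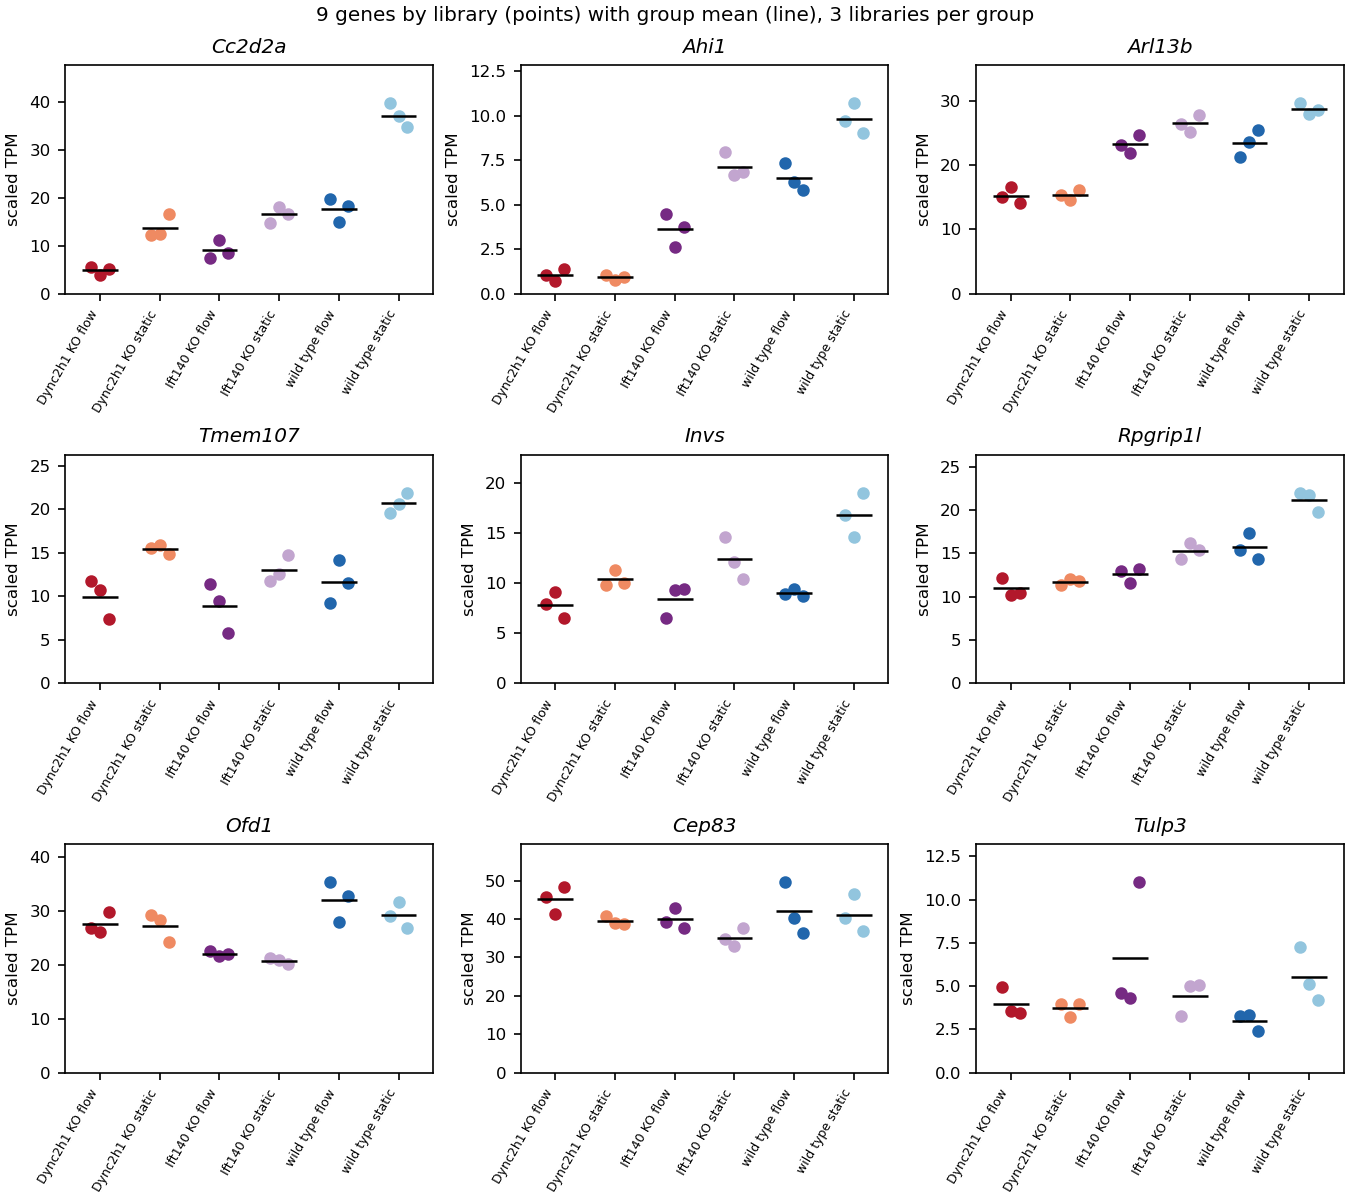
Scaled TPM (y axis, from 0) of 9 of the genes in each library (points) and the group mean (line), with 3 libraries per group (x axis). Cc2d2a stood apart in static WT libraries, Ahi1 and Arl13b were low in both Dync2h1 knockout groups, Ofd1 was low in both Ift140 knockout groups, and 1 Ift140 knockout flow library held Tulp3 at 11.

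The tectonics Tctn1, Tctn2 and Tctn3 are secreted or membrane proteins of the MKS module. Tctn1 stood at 9.73, 9.88 and 10.6 scaled TPM in Dync2h1 knockout flow libraries and 15.2, 14.2 and 13.4 in static ones, against 21.9, 21.0 and 18.6 in flow and 23.8, 21.8 and 31.6 in static WT libraries. Both Dync2h1 knockout groups lay wholly below WT, with log2 differences of -0.95 (SE 0.16, limma adjusted p = 0.000363) under flow and -0.79 (SE 0.16, adjusted p = 0.00176) in static culture. In Ift140 knockout cells Tctn1 was at 11.6, 12.2 and 17.8 under flow and 23.0, 16.7 and 22.8 in static culture, a fall of 0.56 (adjusted p = 0.0247) although the groups overlapped. That call was lost without static replicate 1 or 3 or flow replicate 1 or 2 of that line (adjusted p = 0.0756 to 0.095). It was also lower than WT under flow in that line (-0.55, adjusted p = 0.0315), a call lost in 7 of 14 alternative settings. Of Tctn1 exon bases 27.5% overlap Hvcn1 on the opposite strand, and since the strand of the libraries is not given, reads of the pair cannot be told apart there. Hvcn1 was at 0.761 to 5.69 scaled TPM. The same limit holds for 20.3% of Inpp5e exon bases (with Pmpca), 11.7% of Tmem237 (with G730003C15Rik) and 10.1% of Tmem216 (with Cpsf7). It holds for smaller shares of Cep290, Tmem67, Ofd1 and Invs.

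Tctn3 stood at 14.2, 11.3 and 16.3 scaled TPM in Ift140 knockout flow libraries, against 23.1, 18 and 19.0 in static ones, without overlap, and fell by 0.50 (adjusted p = 0.0346), a call lost in 7 of 15 alternative settings. Averaged over genotypes, flow minus static was -0.40 for Tctn3 (SE 0.09, adjusted p = 0.00209) and -0.44 for Tctn1 (SE 0.09, adjusted p = 0.00136). Tctn2 was called once, at 7.89, 5.96 and 6.83 in Dync2h1 knockout flow libraries against 9.47, 12.2 and 13.3 in WT flow libraries (-0.68, adjusted p = 0.0341, lost in 5 of 14 settings).

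The tetraspan and related TMEM proteins of the module anchor it in the membrane. Tmem107, which in mammals recruits other MKS proteins, stood at 11.8, 10.7 and 7.40 scaled TPM in Dync2h1 knockout flow libraries, against 15.5, 15.9 and 14.9 in static ones. In WT libraries it was at 9.20, 14.2 and 11.5 under flow, against 19.6, 20.6 and 21.9 in static culture. The groups did not overlap in either line, and it fell by 0.61 (limma adjusted p = 0.0472) and by 0.80 (adjusted p = 0.0107). The Dync2h1 knockout call was lost in 10 of 15 alternative settings. Ift140 knockout libraries had 11.4, 9.49 and 5.75 under flow and 11.7, 12.5 and 14.7 in static culture, which was not called (-0.54, adjusted p = 0.0803), while static Ift140 knockout cells were lower than static WT cells (-0.64, adjusted p = 0.0398), a call lost in 8 of 14 settings.

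Tmem231 was at 6.92, 5.09 and 2.83 scaled TPM in WT flow libraries, against 8.31, 8.41 and 9.30 in static ones, and fell by 0.76 (adjusted p = 0.0196). Without WT flow replicate 3, the lowest library, the difference was -0.48 and not called (adjusted p = 0.0968), and without WT static replicate 3 it was -0.72 (adjusted p = 0.0651). In static Dync2h1 knockout libraries it had 4.30, 5.48 and 5.37, all below static WT (-0.68, adjusted p = 0.0275, lost in 6 of 14 settings).

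Tmem17 stood in Ift140 knockout flow libraries at 1.5, 1.48 and 0.895 scaled TPM, against 3.74, 2.06 and 2.26 in static ones and 3.70, 4.10 and 2.87 in WT flow libraries. It fell with flow in that line by 0.67 (adjusted p = 0.0457), a call lost without any 1 library of that line but static replicate 2 (-0.54 and adjusted p = 0.144 without the library labelled flow replicate 3). Against WT it fell by 0.99 under flow (SE 0.22, adjusted p = 0.00588) and by 0.67 in static culture (adjusted p = 0.0438), where WT had 6.01, 3.99 and 4.46. The static call was lost in 10 of 13 alternative settings.

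Tmem237 was called in no flow comparison but was lower in the Dync2h1 knockout. It had 18.7, 24.4 and 20.2 scaled TPM in Dync2h1 knockout flow libraries, against 31.1, 41.9 and 35.1 in WT flow libraries (-0.74, adjusted p = 0.00273). In static culture it had 24.1, 24.9 and 20.1, against 38.6, 39.6 and 42.1 (-0.78, adjusted p = 0.00215), again without overlap. Tmem67, the meckelin receptor-like protein, was at 7.51, 7.05 and 8.79 in static Dync2h1 knockout libraries, against 11.3, 13.5 and 11.6 in static WT libraries (-0.58, adjusted p = 0.0251, lost in 4 of 14 settings). Mks1, a B9 domain protein and the founding Meckel gene, was at 0.754, 1.90 and 1.42 in static Ift140 knockout libraries, against 3.56, 3.53 and 2.07 in static WT libraries (-0.79, adjusted p = 0.0387), a call lost in 7 of 13 settings. The B9 partners B9d1 and B9d2 and the membrane protein Tmem216 were called in no comparison.

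Among the scaffold genes, Rpgrip1l, which in mammals organises the transition zone, was called in 6 comparisons and Cep290, the linker protein, in 4. Rpgrip1l stood at 12.2, 10.2 and 10.4 scaled TPM in Dync2h1 knockout flow libraries and 11.3, 12.0 and 11.8 in static ones. In Ift140 knockout libraries it was at 13.0, 11.6 and 13.2 under flow and 14.3, 16.2 and 15.4 in static culture. WT libraries had 15.4, 17.4 and 14.4 under flow, against 22.0, 21.8 and 19.8 in static culture. Every library of both knockouts lay below every static WT library. It fell by 0.41 with flow in WT cells (SE 0.10, adjusted p = 0.00608), by 0.80 in static Dync2h1 knockout cells (adjusted p = 1.56e-05), by 0.48 in flow Dync2h1 knockout cells (adjusted p = 0.00128) and by 0.45 in static Ift140 knockout cells (adjusted p = 0.0043). Under flow the Ift140 knockout difference was -0.29 (adjusted p = 0.0498), and without the library labelled flow replicate 3 of the Ift140 knockout it was -0.32 and not called (adjusted p = 0.051). That call was lost in 11 of 14 alternative settings.

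Cep290 was the highest of the 33 in static WT cells. It had 36.0, 27.0 and 32.0 scaled TPM in WT flow libraries, against 48.0, 52.3 and 42.3 in static ones, and fell by 0.57 (SE 0.14, adjusted p = 0.00767). Static Dync2h1 knockout libraries had 35.5, 24.8 and 29.8 (-0.66 against WT, adjusted p = 0.00221) and static Ift140 knockout libraries 30.4, 31.8 and 30.4 (-0.60, adjusted p = 0.00661). No library of those groups reached the static WT range. Nphp4, of the NPHP module, was called only between Dync2h1 knockout and WT under flow, with 4.92, 3.03 and 4.52 against 6.75, 7.32 and 6.61 (-0.63, adjusted p = 0.0308, lost in 6 of 14 settings). Iqcb1, the nephrocystin 5 gene, was not called.

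All 3 inversin compartment genes had flow differences below 0 in all 3 lines. Invs, the inversin scaffold, stood at 7.92, 9.07 and 6.48 scaled TPM in Dync2h1 knockout flow libraries, against 9.77, 11.3 and 10.0 in static ones. Ift140 knockout libraries had 6.48, 9.33 and 9.43 under flow, against 14.6, 12.1 and 10.4 in static culture. WT libraries had 8.92, 9.39 and 8.73 under flow, against 16.8, 14.6 and 19.0 in static culture. Flow and static libraries did not overlap in any line, and the flow levels of the 3 lines overlapped each other. The fall was 0.82 in WT (SE 0.15, limma adjusted p = 0.00133) and 0.51 in Ift140 knockout cells (SE 0.15, adjusted p = 0.033, lost in 6 of 15 settings), while -0.37 in Dync2h1 knockout cells was not called. In static culture the Dync2h1 knockout was lower than WT (-0.64, adjusted p = 0.00539).

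Nek8, the kinase of the compartment, was at 13.8, 14.8 and 12.5 scaled TPM in Ift140 knockout flow libraries, against 18.1, 19.2 and 19.2 in static ones, and fell by 0.43 (adjusted p = 0.015). In WT libraries it was at 15.6, 19.3 and 16.9 under flow, against 26.9, 20.0 and 21.5 in static culture, and fell by 0.38 (adjusted p = 0.0277, lost in 5 of 15 settings). Static Dync2h1 knockout libraries had 18.2, 18.1 and 16.1, lower than static WT (-0.36, adjusted p = 0.0279, lost in 5 of 14). Anks6, the ankyrin protein that binds Nek8, was called in the average over genotypes alone (-0.47, SE 0.13, adjusted p = 0.0107). Its levels were 6.35, 5.98 and 4.79 under flow against 5.53, 7.24 and 6.90 in static Dync2h1 knockout cells, 8.56, 3.25 and 5.62 against 8.99, 10.2 and 8.90 in Ift140 knockout cells, and 5.42, 8.46 and 5.96 against 9.10, 11.4 and 9.49 in WT cells.

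Of the membrane traffic genes, Arl13b, a small GTPase that activates Arl3 and is a widely used cilium marker, differed mostly by line. It stood at 15.1, 16.7 and 14.1 scaled TPM in Dync2h1 knockout flow libraries and 15.4, 14.6 and 16.1 in static ones. WT libraries had 21.3, 23.6 and 25.5 under flow and 29.7, 28.0 and 28.7 in static culture. All Dync2h1 knockout libraries lay below all WT ones, with differences of -0.87 in static culture (SE 0.09, limma adjusted p = 2.18e-06) and -0.59 under flow (SE 0.09, adjusted p = 9.65e-05). With flow it fell in WT cells by 0.29 (adjusted p = 0.0262), a call lost in 8 of 15 alternative settings. The Ift140 knockout was at 23.2, 22.0 and 24.7 under flow and 26.5, 25.2 and 27.9 in static culture, and no comparison of that line was called.

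Pde6d, which carries prenylated proteins such as Inpp5e to the cilium, was at 14.8, 9.83 and 12.1 scaled TPM in WT flow libraries, against 22.7, 21.7 and 17.7 in static ones, and fell by 0.72 (SE 0.18, adjusted p = 0.0105). In static Dync2h1 knockout libraries it was at 15.0, 15.7 and 11 (-0.55 against WT, adjusted p = 0.0362, lost in 4 of 14 settings). Averaged over genotypes, flow minus static was -0.57 (SE 0.11, adjusted p = 0.00052).

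Unc119b, which carries myristoylated proteins, was the exception in direction. It stood at 30.1, 35.3 and 31.5 scaled TPM under flow against 28.2, 27.8 and 26.8 in static Dync2h1 knockout cells, 42.4, 43.3 and 41.6 against 35.6, 35.6 and 38.3 in Ift140 knockout cells, and 39.1, 46.8 and 42.4 against 37.8, 40.1 and 39.4 in WT cells. Flow libraries lay above static ones in both knockouts and overlapped them in WT, and the average difference was 0.18 (SE 0.04, adjusted p = 0.00342). With TPM as deposited it was not called (adjusted p = 0.0812). Dync2h1 knockout cells differed from WT by -0.49 in static culture (adjusted p = 0.000182) and -0.39 under flow (adjusted p = 0.000976).

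Tulp3, the adaptor that brings receptors into the cilium with the Ift140 complex, rose in 1 comparison. It was at 4.6, 4.29 and 11 scaled TPM in Ift140 knockout flow libraries, against 3.25, 3.32 and 2.40 in WT flow libraries, a difference of 0.83 (SE 0.27, adjusted p = 0.048). The highest value came from the library labelled flow replicate 3 of the Ift140 knockout, and without it the difference was 0.45 and not called (adjusted p = 0.184). The call was lost in 9 of 13 alternative settings. Arl3 and the lipid phosphatase Inpp5e were called in no comparison.

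The distal appendage gene Sclt1 was called in 5 comparisons. It stood at 24.3, 24.0 and 26.4 scaled TPM in Dync2h1 knockout flow libraries and 29.8, 27.2 and 29.6 in static ones. Ift140 knockout libraries had 26.7, 29.9 and 20.6 under flow, against 38.2, 34.9 and 31.6 in static culture. WT libraries had 31.2, 29.9 and 36.6 under flow, against 44.6, 42.8 and 43.2 in static culture. Flow libraries lay below static ones in every line. The fall was called in WT (-0.41, adjusted p = 0.0186) and in Ift140 knockout cells (-0.44, adjusted p = 0.016), each lost in 3 of 15 alternative settings. In WT cells these were the fits without static replicate 1 or flow replicate 1 or 2. The Ift140 knockout call was lost without the library labelled flow replicate 3 of that line (-0.29, adjusted p = 0.0553) or without its static replicate 1 (-0.37, adjusted p = 0.0725). It was also lost with only the compared groups in the fit. The Dync2h1 knockout was lower than WT in static culture (-0.58, adjusted p = 0.00141) and under flow (-0.37, adjusted p = 0.0235, lost in 3 of 14 settings).

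Cep164, which recruits the kinase Ttbk2 to the appendages, was at 10.6, 15.8 and 15.0 scaled TPM in Dync2h1 knockout flow libraries, against 23.5, 19.3 and 21.9 in WT flow libraries (-0.62, adjusted p = 0.00676). In static culture it was at 17.3, 18 and 19.1, against 24.9, 33.9 and 25.2 in WT (-0.58, adjusted p = 0.011). Ttbk2 was at 6.20, 8.03 and 6.29 in Dync2h1 knockout flow libraries, against 11.8, 17.0 and 9.91 in WT flow libraries (-0.80, adjusted p = 0.00454). Of Ttbk2 exon bases 29.9% are shared with Cdan1 on the same strand, so the split between them is uncertain; Cdan1 was also lower in that comparison (-0.36, adjusted p = 0.0485).

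Ofd1, a centriole and satellite protein on the X chromosome, followed the Ift140 genotype. It was at 22.5, 21.6 and 22.0 scaled TPM in Ift140 knockout flow libraries, against 35.3, 28.0 and 32.8 in WT flow libraries (-0.51, SE 0.09, adjusted p = 0.0017). In static culture it was at 21.3, 20.8 and 20.2, against 29.1, 31.6 and 26.9 in WT (-0.47, SE 0.09, adjusted p = 0.00269). The Ift140 knockout libraries lay below all WT ones, and Dync2h1 knockout libraries, at 24.3 to 29.7, were not called against WT. Cby1, which helps Cep164-bound vesicles reach the basal body, was called in the average of the flow differences alone (-0.35, SE 0.11, adjusted p = 0.0217), where Cep164 fell too (-0.37, adjusted p = 0.0038). Cby1 levels ran from 10.0 to 20.9 under flow and from 19.2 to 27.2 in static libraries of all 3 lines. The 10.0 was the library labelled flow replicate 3 of the Ift140 knockout, beside 20.9 and 20.4 in that group. Without that library the average was -0.24 and still called (limma adjusted p = 0.00493). The Ift140 knockout flow difference was then -0.05 (adjusted p = 0.814). With no filter the average was not called (adjusted p = 0.0513). Cep83, which founds the appendages, was not called in any comparison and stood at 33 to 49.6 over the 18 libraries.

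The 7 genes without a call, B9d1, B9d2, Tmem216, Iqcb1, Arl3, Inpp5e and Cep83, had log2 differences between -0.40 and 0.40 in the 10 comparisons. Levels of the 33 in static WT cells spanned from 2.38 scaled TPM for B9d2 to 47.5 for Cep290. At the top, the ranges of Cep290 (42.3 to 52.3), Sclt1 (42.8 to 44.6), Cep83 (36.8 to 46.5) and Tmem237 (38.6 to 42.1) overlapped from each gene to the next in order.

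Whether the flow response differs between genotypes was tested directly. In the difference of responses 0 of the 33 were called for Dync2h1 knockout minus WT, where 0.485% of all genes were (0.179% upward and 0.305% downward), and 0 for Ift140 knockout minus WT, where 0.227% were (0.0778% upward and 0.15% downward), by limma with Benjamini-Hochberg adjustment. At an unadjusted p under 0.05 there were 3 and 2, where 9.78% and 7.94% of all genes were. Ahi1 was nearest for the Dync2h1 knockout, with a difference of 0.61 (95% interval 0.11 to 1.10, adjusted p = 0.375), followed by Rpgrip1l at 0.32 (0.03 to 0.61, adjusted p = 0.445) and Arl13b at 0.28 (0.02 to 0.54, adjusted p = 0.454). For the Ift140 knockout it was Tulp3 at 1.09 (0.28 to 1.90, adjusted p = 0.439) and Mks1 at 0.86 (0.11 to 1.61, adjusted p = 0.539). Without the library labelled flow replicate 3 of that line, Tulp3 was at 0.71 (0.10 to 1.32, adjusted p = 0.42) and Mks1 at 1.05 (0.29 to 1.80, adjusted p = 0.306), with 6 of the 33 at an unadjusted p under 0.05 (10.1% of all genes) and 0 called. For Cc2d2a the difference was -0.30 in the Dync2h1 and 0.22 in the Ift140 knockout. The smaller call counts with flow in the knockouts are thus not shown to be smaller responses of these genes.

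Each knockout was also set against WT. Of the 33 genes 15 fell and 0 rose in static Dync2h1 knockout cells, where 14.1% of all genes fell and 13.5% rose, and the median log2 difference was -0.47 against -0.01 for all genes. Under flow 12 fell and 0 rose, where 14.0% and 16.1% of all genes did, with a median of -0.37 against 0.01. In static Ift140 knockout cells 7 fell and 0 rose (9.08% and 8.97% of all genes), with a median of -0.29 against 0.00, and 4 fell without WT static replicate 1 or 2. Under flow 6 fell and 1 rose (7.52% and 7.73% of all genes), with a median of -0.22 against 0.01, and 5 fell without the library labelled flow replicate 3, with 4 without WT flow replicate 1 or 2. Both knockouts are set against the same WT libraries, so their counts stand side by side and are not compared. All knockout libraries lay below all WT ones for 23 and 13 of the 33 genes in static and flow Dync2h1 knockout cells (24.3% and 21.6% of all genes), and for 15 and 9 in Ift140 knockout cells (19% and 13.8%). Without the library labelled flow replicate 3 of the Ift140 knockout, the count of 9 under flow was 10, and the share of all genes was not counted.

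Static and flow comparisons of a line share no library. In the Dync2h1 knockout 9 genes fell in both cultures, which is 60% of the static and 75% of the flow calls. They were Cc2d2a, Tctn1, Tmem237, Ahi1, Rpgrip1l, Arl13b, Unc119b, Cep164 and Sclt1, and across the 33 genes Pearson's r was 0.84 and Spearman's rho 0.69. In the Ift140 knockout 4 fell in both (Cc2d2a, Tmem17, Rpgrip1l and Ofd1), which is 57.1% of each list, with r = 0.49 and rho = 0.47. Without the library labelled flow replicate 3 of that line 3 did, all but Rpgrip1l, which is 42.9% of the static and 60% of the flow calls. These correlations are across genes, which are not independent replicates. The share of all genes called in both cultures of a line was not counted.

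**Figure D5:**
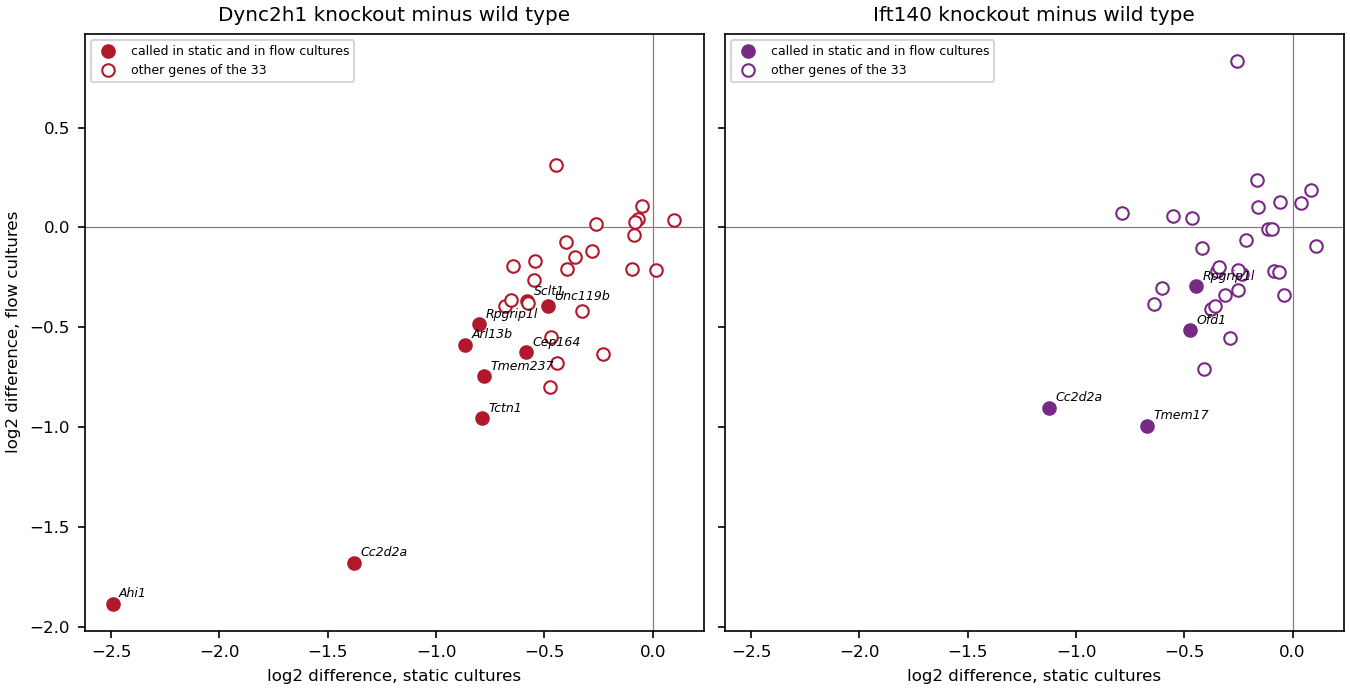
Log2 difference of scaled TPM + 1, knockout minus WT, in static (x axis) and flow cultures (y axis) for the 33 genes, left for the Dync2h1 and right for the Ift140 knockout, with filled and named points for genes called in both. Ahi1 lay at -2.49 and -1.89 and Cc2d2a at -1.38 and -1.68 in the left panel, while the point at 0.83 on the right is Tulp3.

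Position and length were read beside these values. The 33 genes span a median of 39.6 kb, against 15.2 kb for 16114 tested genes with an annotation, and run from 2.5 kb for Tmem107 to 152.2 kb for Invs. Over the 33, Spearman's rho of span with the static Dync2h1 knockout difference was -0.42, and with the flow differences it was 0.17, -0.15 and -0.01 in Dync2h1 knockout, Ift140 knockout and WT cells. With the Dync2h1 knockout difference under flow it was -0.28. For the Ift140 knockout it was -0.04 in static culture and -0.23 under flow. Longer genes thus tended to be lower in the static Dync2h1 knockout, the comparison with the strongest of these values, as a description of these 33 genes. The same correlation over all genes tested was not computed, so the trend is not shown to be particular to the 33. Of the 14 genes with the arm GTTGCC 8 fell in the average flow comparison (median -0.27). Of the 17 without it 8 fell (median -0.11), and of all genes tested 18.9% did. Their share with and without the arm was not counted, and a link of the arm to flow was not tested.

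Other genes of the same structures, from 3 lists of 45 genes in the files with 42 tested, were read in the same fits. With flow, 2 rose and 8 fell in Dync2h1 knockout (10.8% and 8.15% of all genes), 1 rose and 6 fell in Ift140 knockout (9.21% and 8.27%), and 1 rose and 6 fell in WT cells (10.2% and 10.3%). Cep131, a satellite gene, and 2700049A03Rik, the Talpid3 gene per RefSeq, fell in all 3 lines. Cep131 was at 15.0, 13.0 and 11.3 scaled TPM under flow against 18.4, 25.8 and 27.6 in static Dync2h1 knockout cells (-0.81, adjusted p = 0.00242) and at 14.6, 13.5 and 15.0 against 30.9, 31.6 and 27.4 in WT cells (-1.01, adjusted p = 0.000371). 2700049A03Rik fell by 0.82, 0.65 and 1.14 in Dync2h1 knockout, Ift140 knockout and WT cells (adjusted p = 0.000247, 0.00194 and 9.92e-06). Ehd1, a membrane-shaping protein of early cilium assembly, rose by 0.57 in Dync2h1 knockout and in WT cells (adjusted p = 0.000333 and 0.000312) and by 0.29 in Ift140 knockout cells (adjusted p = 0.0373). Other falls were those of Cnksr1 in WT cells (-0.64), Pkhd1, the fibrocystin gene, in Dync2h1 knockout cells (-0.53), and the capping gene Cep97 (-0.92) and the Arl3 regulator Rp2 (-0.39) in Ift140 knockout cells.

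Against WT, 3 of these 42 rose and 12 fell in static Dync2h1 knockout cells (13.5% and 14.1% of all genes), and 3 rose and 10 fell under flow (16.1% and 14.0%). Smo, a Hedgehog pathway protein of the cilium membrane, was at 62.6, 67.0 and 57.0 scaled TPM in Dync2h1 knockout flow libraries, against 113, 120 and 116 in WT flow libraries (-0.90, adjusted p = 2.42e-07). Pkhd1 was at 114, 114 and 109, against 344, 264 and 242 (-1.31, adjusted p = 6.19e-07), and Ankrd26, of the distal appendages, at 14.0, 18.2 and 19.2 against 31.2, 31.2 and 33.7 (-0.88, adjusted p = 1.39e-05). Cnksr1 rose there (0.83), and in static culture Dzip1l fell (-0.45). In the Ift140 knockout 2 rose and 4 fell in static culture (8.97% and 9.08%) and 2 rose and 2 fell under flow (7.73% and 7.52%). The cation channel gene Pkd2 was lower in both cultures (-0.34 and -0.35), and Fgfr1op was higher in both (0.58 and 0.42).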

How the data were processed

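RNA sequencing values of 18 libraries were used, 3 in each of 6 groups taken from the labels. Per the submitters' processing notes, FastQC 0.11.5, Bowtie2 2.1.0 and RSEM 1.2.31 were used, and the builds mm10 and GRCm38.p5 are named; settings, annotation release and strand are not given in the sources used here. The deposited values are TPM, 1 file per library, summing to the same total in each, so depth is unknown and no count test was run.

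From these, libraries were scaled by an unweighted trimmed mean of log ratios (30% of ratios and 5% of abundances trimmed; factors 0.89 to 1.13). Genes with at least 1 TPM in 3 libraries were fitted, 16718 in all, with limma 3.58.1 in R 4.3.3 on log2(scaled TPM + 1). The fit had 6 group means, 12 residual degrees of freedom and variances moderated by empirical Bayes with an intensity trend. P-values were adjusted by Benjamini-Hochberg over all genes tested and called under 0.05. The script was tested on simulated data. The differences of responses and both knockouts share the WT libraries.

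The members and lists were chosen with earlier results of these data known. Genes called in at least 1 of the 10 comparisons are named with library values; of the other pathway genes, up to 4 per comparison by smallest p. Coordinates and exon overlaps are from GENCODE vM21 (GRCm38), promoters from RefSeq (GRCm38.p6). Replicate numbers were not shown to pair the libraries, and pairing was not excluded. Alternatives changed the scaling, pseudocount, filter, replicate block, libraries in the fit and single libraries.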

Additional observations from a re-analysis of the deposited data

How the results depend on the processing

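Counts of the 33 genes called moved by over 1.5 times in 4 comparisons under settings that kept all libraries of the compared groups, and the causes were not tested. For flow against static in Dync2h1 knockout cells (2), the count was 4 with TPM as deposited and with only the compared groups in the fit, and 1 with quantile normalisation, a pseudocount of 0.1, no filter, and the replicate block, by number over all groups or within genotype. For flow in Ift140 knockout cells (8), it was 4 with no filter and 0 with only the compared groups in the fit. For Ift140 knockout against WT in static culture (7), it was 4 with quantile normalisation and with no filter. For that comparison under flow (7), it was 4 with no filter and with a mean of at least 5 TPM, which tests 28 of the 33, and 1 with only the compared groups in the fit. The other 6 comparisons stayed within 1.5 times under these settings. In WT cells the replicate block gave 11 over all groups and 8 within genotype. None of 9 same-number pairs had a correlation of deviations over 0.1, and 5 of 9 flow libraries were nearest their own number. Whether the numbers pair the libraries is thus not settled.

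Leaving out 1 library gave 1 to 2 calls for flow in Dync2h1 knockout, 4 to 7 in Ift140 knockout and 7 to 9 in WT cells, 18 to 19 for the average and 0 to 0 for both differences of responses. It gave 11 to 14 for Dync2h1 knockout against WT in static culture and 9 to 13 under flow, and 4 to 6 for the Ift140 knockout in either. The lowest counts came without WT static replicate 1 or WT flow replicate 1 or 2 (7), without Ift140 knockout static replicate 1 (4, and 5 without its replicate 3), without any Dync2h1 knockout library but flow replicate 1 (1), without WT static replicate 1 or 2 (4, Ift140 knockout in static culture), and without WT flow replicate 1 or 2 (4, Ift140 knockout under flow). Of 1345 values of single called genes under the alternatives, 1177 kept the call, 168 lost it and 0 changed sign. In WT flow, Cc2d2a, Rpgrip1l, Cep290 and Invs kept it under all 15, and Arl13b (8 lost) and Ahi1 (7 of 14) lost it most often.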
